A study of Mus musculus with 24 samples.

Results

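The genes that encode collagen chains were followed in mouse skeletal muscle across 3 groups of 8 mice. They were chosen by name, as the array probes whose gene name had the form of a collagen chain symbol (Col, a type number, the letter a and a chain number). The rule found 91 of the 56605 non-control probes, for 44 of the 37324 gene names on the array. Of the 44 genes, 9 encode fibrillar chains (types I, II, III, V and XI), 8 encode basement membrane chains (types IV, XV and XVIII), 6 encode type VI chains and 21 belong to other types. The fibrillar type genes Col24a1 and Col27a1 stood among the others by this rule. HFD_O3 mice were of the omega-3 lineage and ate the high fat diet. HFD_Cont mice were of the control lineage and ate the high fat diet, and STD_Cont mice, also labelled with the control lineage, ate the low fat control diet. Not given in the sources used here are the muscle taken, the sex and age of the mice, the length of the diets and how the omega-3 lineage was made.

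Collagens are trimers of chains that wind into a triple helix in which glycine recurs at every turn. Fibrillar collagens, led by types I and III, form the rope-like fibres of the endomysium, perimysium and tendon, and type V seeds and trims those fibres. Type IV builds the network of the basement membrane around each myofibre and capillary, and type VI forms beaded filaments between that membrane and the fibres. Loss of type VI chains causes Bethlem and Ullrich muscle disease in humans.

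Each gene was measured on 24 one-colour arrays, 1 per mouse, on 3 slides. Between 52.0 and 60.7% of the spots of an array stood well above background, and 0 spots were saturated. Levels below are log2 processed intensity minus the array's 75th percentile over probes, and they are compared between groups for 1 probe, never between probes. The 10 skeletal myofibre genes of the marker list were all measured, and 0 of them had a limma adjusted p under 0.05 in any comparison. That is a comparison between groups and does not test the tissue label. A probe was tested when it was well above background on at least 6 of 8 arrays of 1 group. This left 33 of the 44 collagen genes among 19937 gene names: 9 of 9 fibrillar, 6 of 8 basement membrane, 3 of 6 type VI and 15 of 21 others. The 11 genes left out were Col4a3, Col4a6, Col6a4, Col6a5, Col6a6, Col9a3, Col10a1, Col23a1, Col25a1, Col27a1 and Col28a1. For 3 of them no probe was above background on any array, and the best probe of the others reached at most 14 of 24 arrays. Col15a1 passed the filter through HFD_Cont alone, with 5, 8 and 5 arrays above background in HFD_O3, HFD_Cont and STD_Cont, so its difference between groups was in part a condition of its being tested. The counts and medians below, over all collagen genes and over basement membrane genes, include it.

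The triple helix can be read in the probes themselves. A glycine codon begins with GG, so a probe that lies inside the helix shows GG every 9 bases, once per glycine triplet. An unbroken run of this kind along the 60 bases was found in 4 of 91 collagen probes (4.40%) and in 5 of 56514 other probes (0.00885%). Of these 4 probes, those of Col6a3 and Col15a1 passed the filter, and both are shown 5′ to 3′ with their glycine codons in capitals, since both genes are among the results below.
Col6a3 helix probe: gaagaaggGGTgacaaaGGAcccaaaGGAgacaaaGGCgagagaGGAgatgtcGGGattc
Col15a1 helix probe: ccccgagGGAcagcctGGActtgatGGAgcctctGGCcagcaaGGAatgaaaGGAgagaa
The Col6a3 helix probe runs over chr1:92689602-92690594 of mm9 on the minus strand, a span of 993 bases for a 60-base probe. The Col15a1 probe lies at chr4:47283786-47283845 of mm9 on the plus strand and is the probe that stood for its gene. Exon and UTR positions of the probes are not annotated in the sources used here. The windows of the type IV genes Col4a1 and Col4a2 are printed where that pair is described.

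HFD_Cont was set against STD_Cont to ask how diet alters muscle within the control lineage. Of the 33 collagen genes, 2 rose, Col6a3 and Col4a2, 0 fell and 31 did not pass the test (limma over all gene names, adjusted p under 0.05). Over all gene names 2.91% passed in this comparison, 1.43% upward and 1.48% downward. At an unadjusted p under 0.05 the count was 13 collagen genes higher and 1 lower, where 7.92% and 8.63% of all names were. In sign, 28 of 33 genes were above 0, against 50.8% of all names, and the median change was 0.26, against 0.00 for all names. Of 11 collagen genes with over 1 kept probe, 8 had all kept probes of 1 sign and 3 had kept probes of both signs. The 13 higher genes, the 28 above 0 and the median include Col15a1, which passed the filter through HFD_Cont alone. The 8 mice per group, not the genes, are the replicates, so these counts are a description.

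Col6a3 encodes the long chain of type VI collagen, whose end is released as endotrophin. Its level was 1.74 to 2.69 on HFD_O3 arrays with a median of 2.06, 1.96 to 2.64 on HFD_Cont arrays with a median of 2.46, and 1.41 to 2.22 on STD_Cont arrays with a median of 1.86. On 7 of 8 HFD_Cont arrays Col6a3 stood above the highest STD_Cont array, so the groups overlapped by 1 HFD_Cont array. HFD_O3 overlapped both, with 2 arrays above the highest HFD_Cont array and 4 STD_Cont arrays below the lowest HFD_O3 array. On the log2 scale it rose by 0.57 ± 0.14 (limma SE, n = 8 per group, adjusted p = 0.0307), a 1.49-fold difference, for its probe at chr1:92663663-92663722 of mm9 on the minus strand. The helix probe shown above differed by 0.43 ± 0.18 and another kept probe by 0.29 ± 0.18, and neither passed when every kept probe was tested (adjusted p = 0.199 and 0.450). When single arrays were dropped, the call held in 16 of 24 fits and was lost without HFD_Cont array 2, 4, 5 or 6 or STD_Cont array 1, 3, 4 or 7 (highest adjusted p = 0.0764).

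The other type VI chains were measured with a higher centre in HFD_Cont but did not pass. Col6a1, a short chain of the trimer, was 2.69 to 3.69 on HFD_O3 arrays with a median of 3.04, 3.04 to 3.63 on HFD_Cont arrays with a median of 3.35, and 2.65 to 3.29 on STD_Cont arrays with a median of 3.02. It differed by 0.35 ± 0.13 (adjusted p = 0.146, limma), with 4 of 8 HFD_Cont arrays above every STD_Cont array. Col6a2, the other short chain, had a flagged spot on HFD_O3 array 4 and so 7 values in that group. It was −1.04 to 0.06 on HFD_O3 arrays with a median of −0.57, −0.48 to 0.35 on HFD_Cont arrays with a median of −0.13, and −1.18 to −0.12 on STD_Cont arrays with a median of −0.44, and differed by 0.49 ± 0.17 between HFD_Cont and STD_Cont (adjusted p = 0.121, limma). Its other kept probes gave smaller differences, of 0.13 ± 0.14 for a probe above background on all 24 arrays and 0.09 ± 0.34 for one above it on 18. All 3 tested type VI genes were thus above 0, with a median change of 0.49.

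Among basement membrane genes 1 of 6 rose, 0 fell and 5 did not pass, with a median change of 0.24. That median includes Col15a1, which passed the filter through HFD_Cont alone. Col4a2, which pairs with Col4a1 in the common type IV trimer, was 1.77 to 2.58 on HFD_O3 arrays with a median of 2.30, 2.14 to 2.43 on HFD_Cont arrays with a median of 2.31, and 1.85 to 2.12 on STD_Cont arrays with a median of 2.0. Every HFD_Cont array stood above every STD_Cont array, and the share of all gene names separated in this way is not given here. HFD_O3 array 8 was the lowest of the 24. Col4a2 rose by 0.29 ± 0.08 (SE, n = 8 per group, limma adjusted p = 0.0460), a 1.22-fold difference, for its probe at chr8:11448840-11448899 of mm9 on the plus strand. That call was kept in 6 of the 24 fits without 1 array, those without HFD_O3 array 1, 4, 7 or 8 or STD_Cont array 5 or 6, and was lost without any other array (highest adjusted p = 0.0875). Leaving out HFD_O3 arrays changes only the shared estimate of spread here.

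Col4a1, the partner chain, was 2.25 to 2.88 on HFD_O3 arrays with a median of 2.70, 2.43 to 2.78 on HFD_Cont arrays with a median of 2.65, and 2.26 to 2.56 on STD_Cont arrays with a median of 2.47. The HFD_Cont and STD_Cont arrays overlapped on 3 HFD_Cont arrays, and the difference of 0.18 ± 0.07 did not pass (adjusted p = 0.216, limma). Col18a1, the source of endostatin, differed by 0.35 ± 0.16 (adjusted p = 0.250). It was 0.23 to 1.38 on HFD_O3 arrays with a median of 0.42, 0.39 to 1.49 on HFD_Cont arrays with a median of 0.73, and 0.23 to 0.58 on STD_Cont arrays with a median of 0.48. Col15a1, a chain of the outer basement membrane, was −5.09 to −1.52 on HFD_O3 arrays with a median of −3.50, −3.49 to −2.66 on HFD_Cont arrays with a median of −3.10, and −4.96 to −3.15 on STD_Cont arrays with a median of −3.58. Its difference of 0.75 ± 0.35 did not pass (adjusted p = 0.284, limma), and its spread was wider in HFD_O3 than in either other group. Against this direction stood Col4a4, known from the kidney filter membrane, at −2.74 to −2.13 on HFD_O3 arrays with a median of −2.34, −2.95 to −1.83 on HFD_Cont arrays with a median of −2.32, and −2.28 to −1.78 on STD_Cont arrays with a median of −2.05. The Col4a4 change was −0.32 ± 0.13 (adjusted p = 0.181, limma), and its other kept probe, above background on 23 arrays, gave −0.37 ± 0.43. Col4a5, its partner in that membrane, overlapped in all groups, at −2.27 to −1.40 on HFD_O3 arrays with a median of −1.95, −2.06 to −1.46 on HFD_Cont arrays with a median of −1.76, and −2.37 to −1.56 on STD_Cont arrays with a median of −1.86.

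On the probe that stood for each gene, all 9 fibrillar genes were above 0 in HFD_Cont against STD_Cont, with a median of 0.29. Of them 0 passed, and 4 had an unadjusted p under 0.05. Col1a1, the main chain of type I fibres, was 2.39 to 3.48 on HFD_O3 arrays with a median of 2.71, 2.96 to 3.69 on HFD_Cont arrays with a median of 3.26, and 1.86 to 3.02 on STD_Cont arrays with a median of 2.81. Of the 8 HFD_Cont arrays, 6 lay above every STD_Cont array, and the difference was 0.53 ± 0.17 (adjusted p = 0.0997, limma). Its kept probes gave 0.53, 0.52 and 0.69, and the last of these passed when every kept probe was tested (adjusted p = 0.0441). Col3a1, the type III chain of fine reticular fibres, was 3.19 to 4.18 on HFD_O3 arrays with a median of 3.57, 3.66 to 4.33 on HFD_Cont arrays with a median of 3.87, and 2.72 to 3.80 on STD_Cont arrays with a median of 3.42. It differed by 0.53 ± 0.16 (adjusted p = 0.0645, limma), again with 6 of 8 HFD_Cont arrays above every STD_Cont array. Its 2 dimmer kept probes, designed to other transcripts, gave 0.21 and −0.14.

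Col5a1, the chain that nucleates type I fibres, came closest to the threshold among fibrillar genes. It was 0.87 to 1.64 on HFD_O3 arrays with a median of 1.19, 1.14 to 1.87 on HFD_Cont arrays with a median of 1.56, and 0.59 to 1.44 on STD_Cont arrays with a median of 1.1, a difference of 0.46 ± 0.13 (adjusted p = 0.0575, limma). The cartilage chain Col2a1 was −3.21 to −1.89 on HFD_O3 arrays with a median of −2.46, −2.68 to −2.16 on HFD_Cont arrays with a median of −2.50, and −3.72 to −2.30 on STD_Cont arrays with a median of −2.80. It differed by 0.43 ± 0.17 (adjusted p = 0.201, limma) and was well above background on 8, 8 and 6 arrays. Of 8 cartilage markers only Comp and Sox9 passed the filter on dim probes, and 0 of these 2 passed the test in any comparison. Col1a2 and Col5a2 are given with the lineage comparison, and Col11a2 overlapped between all groups, at −3.44 to −1.25 over the 24 arrays. Col5a3, a further type V chain, was 1.74 to 2.59 on HFD_O3 arrays with a median of 2.18, 1.83 to 2.50 on HFD_Cont arrays with a median of 2.31, and 1.79 to 2.41 on STD_Cont arrays with a median of 2.04. Col11a1, a cartilage chain, was −3.63 to −2.75 on HFD_O3 arrays with a median of −3.19, −3.84 to −2.60 on HFD_Cont arrays with a median of −2.93, and −3.98 to −2.69 on STD_Cont arrays with a median of −3.47, and was well above background on 6, 7 and 4 arrays. Both genes overlapped between all 3 groups.

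Of the 15 other tested collagens 0 passed and 11 were above 0, with a median of 0.11. Col8a2, a short network-forming chain known from the cornea, was −3.46 to −2.16 on HFD_O3 arrays with a median of −3.01, −2.97 to −1.69 on HFD_Cont arrays with a median of −2.35, and −3.98 to −2.26 on STD_Cont arrays with a median of −3.20. It differed by 0.77 ± 0.24 (adjusted p = 0.0848, limma), and it was well above background on 6, 8 and 5 arrays. Col16a1, a chain that sits on fibril surfaces, was −0.16 to 0.84 on HFD_O3 arrays with a median of 0.14, 0.12 to 0.54 on HFD_Cont arrays with a median of 0.47, and −0.20 to 0.40 on STD_Cont arrays with a median of 0.16, a difference of 0.27 ± 0.12 (adjusted p = 0.252, limma). Genes known from specialised sites of muscle did not separate the groups. Col22a1 of the myotendinous junction was 2.94 to 3.49 on HFD_O3, 2.98 to 3.41 on HFD_Cont and 2.83 to 3.32 on STD_Cont arrays, and Col13a1 of the neuromuscular junction was at 1.07 and 0.35 on HFD_O3 arrays 6 and 8, while its medians were −2.80 in HFD_O3, −2.74 in HFD_Cont and −2.69 in STD_Cont. These 2 genes and Col11a2 were picked after their values were seen. The 19 genes with an unadjusted p of 0.05 or more changed by −0.25 to 0.35 in this comparison.

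**Figure D1:**
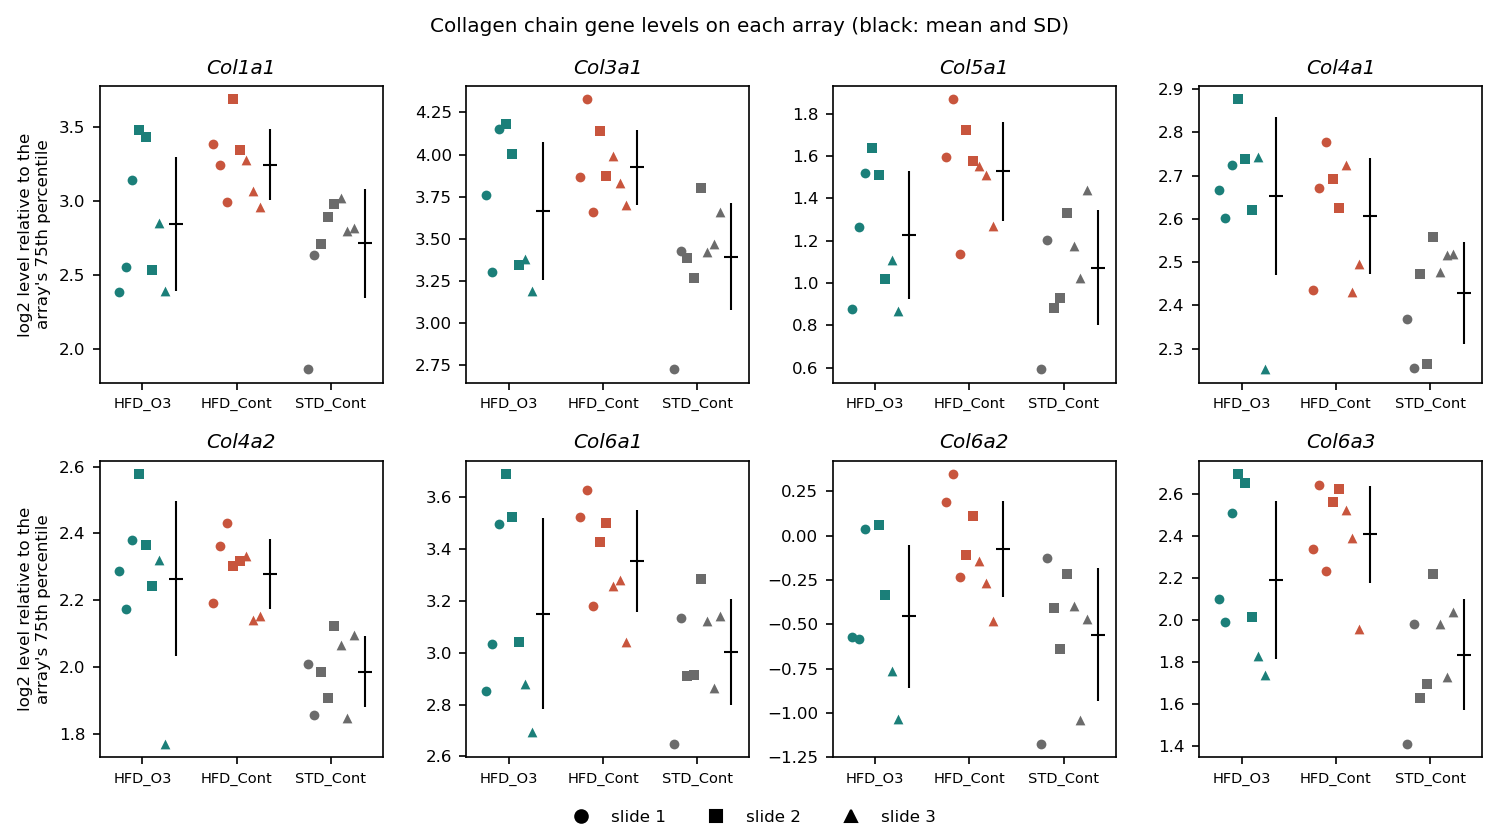
Log2 level of 8 collagen chain genes relative to the array's 75th percentile (vertical axis, 1 scale per gene) on each array of HFD_O3, HFD_Cont and STD_Cont, with marker shape for the slide and black bars for mean and SD (n = 8, or 7 for Col6a2 in HFD_O3). For Col4a2 the HFD_Cont arrays lie at 2.14 to 2.43 and the STD_Cont arrays at 1.85 to 2.12, and HFD_O3 array 8 lies at 1.77.

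The comparison of HFD_O3 with HFD_Cont asked how the omega-3 lineage differed on the high fat diet. Over all gene names limma called 0 (0%) in this comparison, and 7.08% had an unadjusted p under 0.05. Of the 33 collagen genes 0 passed, the lowest adjusted p was 0.638, and at an unadjusted p under 0.05 the count was 7 lower and 0 higher, where 4.39% and 2.69% of all names were. In sign, 25 of 33 genes were below 0 and 8 above, where 44.2% of all names were above 0. The median change was −0.10 against −0.01 for all names. The HFD_Cont arrays are shared with the diet comparison, so a gene measured high in HFD_Cont tends to differ in both comparisons with opposite signs, and these counts are not a separate observation of it.

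All 9 fibrillar genes were below 0, with a median of −0.26 and 0 past the threshold. Col1a2, the second chain of type I, was 4.64 to 5.55 on HFD_O3 arrays with a median of 4.82, 4.98 to 5.82 on HFD_Cont arrays with a median of 5.29, and 4.60 to 5.30 on STD_Cont arrays with a median of 5.15. Its change of −0.31 ± 0.15 did not pass (adjusted p = 0.699, limma), and HFD_O3 arrays overlapped both other groups. Col5a2, a type V chain, was −2.69 to −1.93 on HFD_O3 arrays with a median of −2.39, −2.34 to −1.11 on HFD_Cont arrays with a median of −2.05, and −2.54 to −1.89 on STD_Cont arrays with a median of −2.21, a change of −0.38 ± 0.14 (adjusted p = 0.638, limma). The other kept probe of Col5a2, above background on 23 arrays, gave −0.16 ± 0.20 here and −0.10 ± 0.20 in HFD_Cont against STD_Cont. The changes of Col1a1 and Col5a1 were −0.40 ± 0.17 and −0.30 ± 0.13 (adjusted p = 0.672 and 0.661, limma). Each of these 4 genes had 0 HFD_O3 arrays above the highest HFD_Cont array.

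Of the type VI genes 0 of 3 passed and all were below 0, with a median of −0.22. Col6a2 changed by −0.38 ± 0.17 over 7 HFD_O3 and 8 HFD_Cont arrays (adjusted p = 0.679, limma). Of the basement membrane genes 5 of 6 were below 0 with a median of −0.09, and none had an unadjusted p under 0.05. The other collagens were near balance, with 8 of 15 below 0 and a median of −0.02. Among them Col12a1, a fibril-associated chain of tendon and muscle sheaths, was −2.54 to −1.64 on HFD_O3 arrays with a median of −2.09, −1.96 to −0.95 on HFD_Cont arrays with a median of −1.64, and −2.65 to −1.41 on STD_Cont arrays with a median of −1.96. All 8 HFD_O3 arrays lay below the HFD_Cont median for Col12a1, and its change was −0.45 ± 0.17 (adjusted p = 0.638, limma). Col8a2 changed by −0.62 ± 0.24 (adjusted p = 0.638, limma). The remaining 26 genes changed by −0.26 to 0.74, the highest being Col13a1, which was above every HFD_Cont value on HFD_O3 arrays 6 and 8. The other kept probe of Col13a1, above background on 20 arrays, went the other way, with −0.16 ± 0.18.

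The comparison of HFD_O3 with STD_Cont set the omega-3 lineage on the high fat diet against the control group on the low fat diet, so diet and lineage differed together. Over all gene names 0.597% passed, 0.406% upward, and 0 of the 33 collagen genes did (limma). At an unadjusted p under 0.05 the count was 4 higher and 1 lower, where 4.83% and 6.39% of all names were, and the median change was 0.12 against −0.02. The 4 were Col4a2 with 0.28 ± 0.08 (adjusted p = 0.119), Col4a1 with 0.22 ± 0.07 (0.196), Col6a3 with 0.35 ± 0.14 (0.318) and Col2a1 with 0.42 ± 0.17 (0.335), and the lower gene was Col4a4 with −0.35 ± 0.13 (0.248). The other kept probe of Col4a4, above background on 23 arrays, went the other way, with 0.17 ± 0.43. For both Col4a1 and Col4a2, 7 of 8 HFD_O3 arrays stood above every STD_Cont array, and array 8 alone lay below. Without that array, picked out after its value was seen, Col4a1 and Col4a2 both passed (limma adjusted p = 0.0311 and 0.00638). This was the 1 of 24 fits with a single array dropped in which either gene passed. The highest adjusted p-values, without HFD_O3 array 4, were 0.344 and 0.234 (limma). The other 28 genes changed by −0.29 to 0.61.

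**Figure D2:**
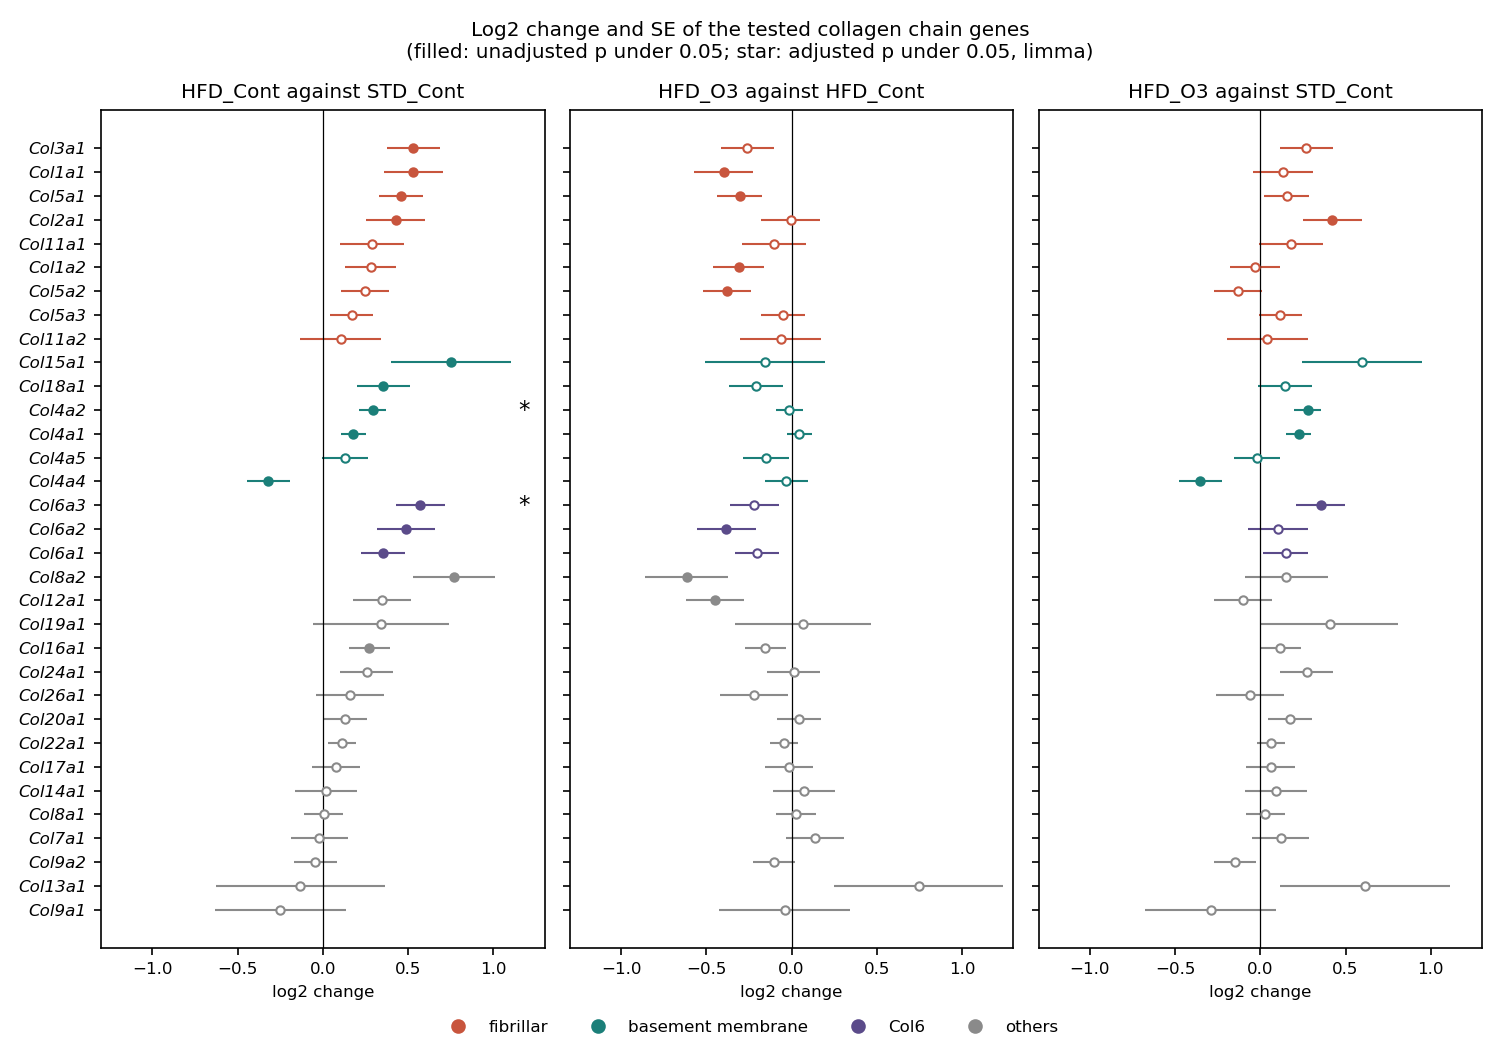
Log2 change with its SE (horizontal axis) of the 33 tested collagen chain genes (rows, coloured by class) in the 3 comparisons, with filled points for an unadjusted p under 0.05 and a star for an adjusted p under 0.05. Stars stand at Col4a2 and Col6a3 in HFD_Cont against STD_Cont and at no gene in the other comparisons.

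The HFD_O3 arrays were not of a piece. With each gene centred on its mean over all arrays, the median over fibrillar genes was 0.28, 0.36 and 0.34 on HFD_O3 arrays 3, 4 and 5, and −0.41 to −0.23 on the other 5. The type VI median was 0.36, 0.53 and 0.42 on the same 3 arrays and −0.48 to −0.13 on the other 5. Over 8 arrays the fibrillar median ran from −0.41 to 0.36 in HFD_O3, from −0.01 to 0.45 in HFD_Cont and from −0.55 to 0.06 in STD_Cont. These 3 arrays were picked out after their values were seen, so no test was made of them.

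White adipocyte markers were read beside these values, array by array. The mean centred level of 12 markers, all 12 of them measured, was −1.26 to 1.62 in HFD_O3 with a median of −0.67. It was −1.19 to 2.11 in HFD_Cont with a median of 0.42, and −1.49 to 1.20 in STD_Cont with a median of −0.40. Of the 12 markers 0 passed the test in any comparison. Their median change was 0.51 in HFD_Cont against STD_Cont, with 9 above 0. In HFD_O3 against HFD_Cont it was −1.02, with 2 above 0, and in HFD_O3 against STD_Cont −0.05, with 6 above 0. The mean centred level was over 0.5 on 2 HFD_O3 arrays (4 and 5), 3 HFD_Cont arrays (2, 4 and 5) and 2 STD_Cont arrays (1 and 4). HFD_O3 arrays 4 and 5 were thus high in both collagens and adipocyte markers, while HFD_O3 array 3, at −1.19, and STD_Cont array 1, at 1.20, were not. The fibrillar median was 0.31, 0.45 and 0.30 on HFD_Cont arrays 2, 4 and 5, and −0.55 and −0.28 on STD_Cont arrays 1 and 4. In STD_Cont it was highest, at 0.06, on array 5, where the mean centred marker level was lowest, at −1.49. HFD_O3 arrays 4 and 5 and HFD_Cont arrays 4 and 5 lay together in row 1 of slide 2. That row held no STD_Cont array, and the part of array position in the adipocyte score was not tested. Without the 7 arrays limma called 0 of 19937 gene names in HFD_Cont against STD_Cont (1691 at an unadjusted p under 0.05), Col6a3 differed by 0.36 ± 0.14 (adjusted p = 0.448) and Col4a2 by 0.25 ± 0.10 (adjusted p = 0.471). With the adipocyte score as a covariate these were 0.52 ± 0.15 and 0.28 ± 0.08 (adjusted p = 0.0719 and 0.0868). Of 12 fibroblast markers 11 were tested and 0 passed the test in any comparison. The same score over them had a median of −0.04 in HFD_O3 (−0.32 to 0.22), 0.03 in HFD_Cont (−0.16 to 0.20) and 0.06 in STD_Cont (−0.11 to 0.12). The part of any cell type in the collagen values was not tested. In bulk RNA more cells of a type and more RNA per cell cannot be told apart.

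**Figure D3:**
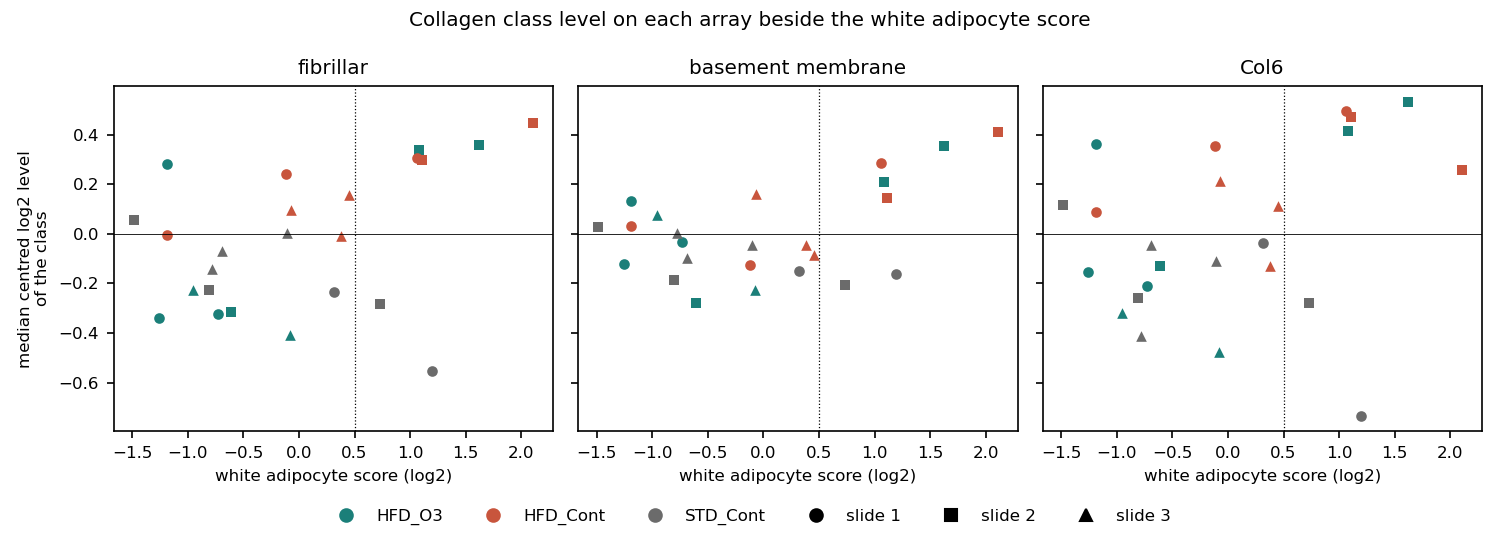
Median centred log2 level of the fibrillar, basement membrane and type VI genes (vertical axis) on each array against the white adipocyte score (horizontal axis, mean centred log2 level of 12 markers), with colour for the group, shape for the slide and a dotted line at 0.5. HFD_O3 arrays 4 and 5 lie at the upper right of the type VI panel with 0.53 and 0.42, and STD_Cont array 1 lies at the lower right with −0.73.

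Slides were used as batches, with 2 or 3 arrays of each group on each. For HFD_Cont against STD_Cont the median over all collagen genes was 0.32, 0.33 and 0.15 within slides 1, 2 and 3, and Col6a3 differed by 0.71, 0.74 and 0.37 and Col4a2 by 0.39, 0.31 and 0.21, with 0 genes of any kind past the threshold within a slide. For HFD_O3 against HFD_Cont the medians were −0.10, −0.08 and −0.32. For HFD_O3 against STD_Cont they were 0.19, 0.28 and −0.16, so the sign did not hold on slide 3, where Col6a3 stood at −0.13, Col4a1 at −0.0057 and Col2a1 at −0.21. Array row was not balanced over the groups within slides. On slide 2 the 2 HFD_Cont arrays lay in row 1 and the 3 STD_Cont arrays in row 2. Row and group thus cannot be told apart in the slide 2 differences of HFD_Cont against STD_Cont. With slide and row as a block Col6a3 differed by 0.40 ± 0.15 and Col4a2 by 0.25 ± 0.09 in HFD_Cont against STD_Cont (limma adjusted p = 0.261 and 0.239).

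**Figure D4:**
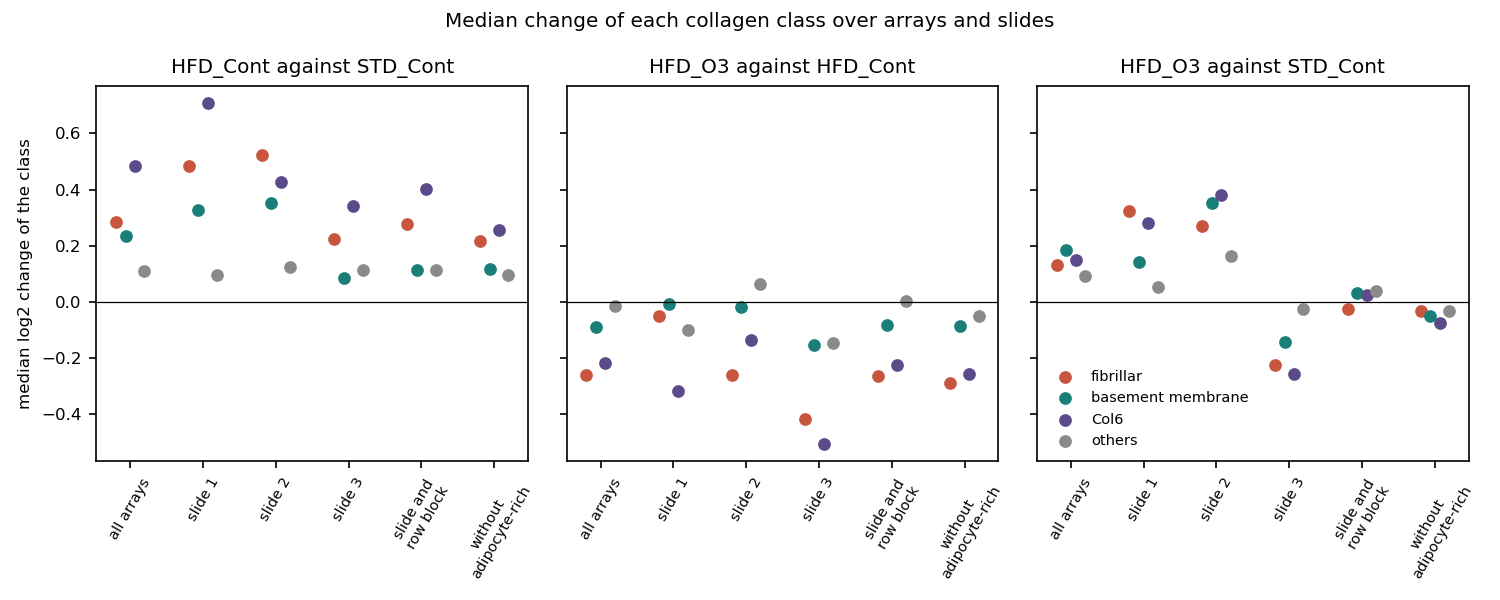
Median log2 change (vertical axis) of each collagen class in the 3 comparisons, over all arrays, within each slide, with a block for slide and row, and without the 7 arrays rich in adipocyte markers. In HFD_Cont against STD_Cont the type VI median lies between 0.26 and 0.71, and in HFD_O3 against STD_Cont all 4 class medians lie below 0 on slide 3.

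Chains that share a trimer were compared across arrays after removal of their group means, for 6 pairs. P-values called adjusted were adjusted over the pairs. Col1a1 and Col1a2 correlated with a Pearson r of 0.929 and a Spearman rho of 0.947 over 24 arrays (permutation test, unadjusted p = 1e-05 for each, the smallest that the permutations can give), and with 0.931, 0.954 and 0.856 within slides. Col6a1 and Col6a3 gave 0.931 and 0.914, Col6a1 and Col6a2 0.907 and 0.905, and Col6a2 and Col6a3 0.825 and 0.796, the last pairs over 23 arrays. Col4a1 and Col4a2 gave 0.892 and 0.797, and r was 0.804 without the 2 arrays farthest from the median of Col4a1, which include HFD_O3 array 8. Col5a1 and Col5a2 gave 0.215 and 0.311 (permutation test, adjusted p = 0.318 and 0.139), with 0.06, 0.71 and 0.17 within slides. Without the 2 arrays farthest in the first gene of a pair, r was 0.934 for type I and 0.907, 0.878 and 0.771 for the type VI pairs in the order above. For the type V pair it was 0.170. HFD_Cont array 7, at 0.83 from its group mean in Col5a2 and −0.02 in Col5a1, was not among the arrays left out there. The values of a pair come from the same arrays and share their scaling and cell content.

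**Figure D5:**
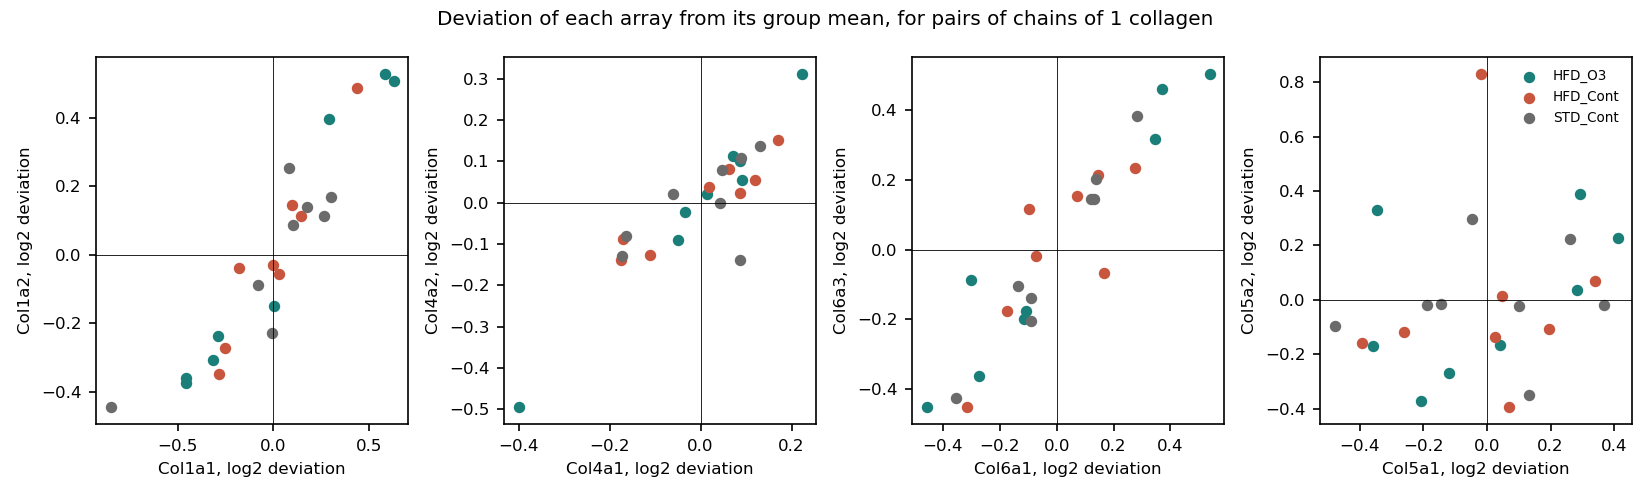
Deviation of each array from its group mean on the log2 scale for 4 pairs of chains, 1 point per array (n = 24), coloured by group. Points lie along a line for Col1a1 with Col1a2 (r = 0.929), Col4a1 with Col4a2 (0.892) and Col6a1 with Col6a3 (0.931), and scatter for Col5a1 with Col5a2 (0.215).

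Col4a1 and Col4a2 are known to lie head to head and to share a promoter. In the RefSeq windows of GRCm38.p6, from 250 bases before to 50 after each start, the starts are 21 bases apart on opposite strands and the windows share 78 bases. Col4a1 starts at 11312826 on the minus strand and Col4a2 at 11312805 on the plus strand, so the annotated transcripts overlap at their 5′ ends. The windows are shown 5′ to 3′ on each gene's own strand because the 2 genes correlated across arrays, with capitals for the letters CCAAT and GGGCGG read on either strand.
Col4a1, chr8:11312777-11313076, minus strand: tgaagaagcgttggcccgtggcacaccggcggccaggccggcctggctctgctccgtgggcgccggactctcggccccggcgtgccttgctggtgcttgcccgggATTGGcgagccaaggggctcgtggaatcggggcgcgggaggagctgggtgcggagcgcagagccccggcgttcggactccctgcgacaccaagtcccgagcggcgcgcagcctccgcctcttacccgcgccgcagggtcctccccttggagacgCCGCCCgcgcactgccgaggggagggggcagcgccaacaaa
Col4a2, chr8:11312555-11312854, plus strand: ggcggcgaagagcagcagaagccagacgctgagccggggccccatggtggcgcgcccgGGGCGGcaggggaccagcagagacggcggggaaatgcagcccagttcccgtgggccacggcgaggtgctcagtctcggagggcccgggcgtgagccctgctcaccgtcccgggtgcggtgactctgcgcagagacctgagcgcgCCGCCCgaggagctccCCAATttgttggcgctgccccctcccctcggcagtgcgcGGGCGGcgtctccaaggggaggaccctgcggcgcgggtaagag
The Col4a1 window holds 1 CCAAT and 1 GGGCGG and that of Col4a2 holds 1 and 3, with 1 of the GC-rich motif being the same site read from both sides, and the motifs do not overlap each other. That shared site lies after both starts, beginning 9 bases after that of Col4a1 and 7 after that of Col4a2. Of all 32851 promoter windows 37.4% hold CCAAT, and of the 38 windows of collagen genes 13 do. For GGGCGG these were 35.7% and 23. TATAAA is in 13.6% of all windows and in neither of these. A match is a description of letters, not of a bound site.

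Genes that act on collagens were read from lists written for this purpose. Of 22 tested genes of collagen folding and modification, of 23 listed, 2 rose and 0 fell in HFD_Cont against STD_Cont, with a median of 0.06. Serpinh1, the chaperone HSP47 that binds the procollagen helix, rose by 0.65 ± 0.09 (limma adjusted p = 0.00151), and its mean level was 2.50 in HFD_O3, 2.59 in HFD_Cont and 1.95 in STD_Cont. Fkbp14, a prolyl isomerase of the endoplasmic reticulum, rose by 0.37 ± 0.07 (adjusted p = 0.0143), with means of 1.05, 1.23 and 0.86. In HFD_O3 against STD_Cont Serpinh1 rose by 0.56 ± 0.09 (limma adjusted p = 0.00635), the 1 called gene of the list, and in HFD_O3 against HFD_Cont 0 of 22 passed. These Serpinh1 and Fkbp14 calls held in all 24 fits with a single array dropped.

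The other lists held 0 called genes in each of the 3 comparisons by limma. In HFD_Cont against STD_Cont the medians were 0.19 for 8 tested genes of procollagen trimming and crosslinking (14 listed), 0.18 for 16 of 17 fibril-associated proteoglycans and glycoproteins, 0.10 for 15 of 15 basement membrane partners, 0.17 for 10 of 12 collagen receptors, 0.13 for 14 of 18 genes of collagen breakdown and −0.01 for 20 of 20 genes of TGF-beta signalling. In HFD_O3 against HFD_Cont the same medians were −0.20, −0.15, −0.04, −0.12, −0.08 and −0.05. Pcolce, the enhancer of procollagen C-proteinase, differed by 0.38 ± 0.12 between HFD_Cont and STD_Cont (adjusted p = 0.0925), Pxdn, the enzyme that crosslinks type IV collagen, by 0.33 ± 0.09 (0.0575), the matrix receptor gene Cd44 by 0.49 ± 0.14 (0.0505) and Tgfb2 by 0.37 ± 0.10 (0.0516). Lox, the lysyl oxidase that crosslinks fibrils, averaged −0.15 in HFD_O3 and 0.25 in STD_Cont (change −0.40 ± 0.21, adjusted p = 0.511).

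Among the markers of other cell types Kdr, the VEGF receptor of endothelium, rose by 0.45 ± 0.10 in HFD_Cont against STD_Cont as 1 of 10 endothelial genes (limma adjusted p = 0.0210). Of those 10 genes 5 were above 0, with a median of 0.02 and a lowest value of −0.20. The Kdr call held in 15 of 22 other settings and in all 24 fits with a single array dropped. The mean centred level of the endothelial list was −0.05 to 0.13 in HFD_O3 with a median of 0.10, −0.14 to 0.20 in HFD_Cont with a median of −0.04, and −0.23 to 0.07 in STD_Cont with a median of −0.04. Angptl7 fell by 0.93 ± 0.22 as 1 of 9 tested tendon genes (adjusted p = 0.0263), a call lost without HFD_Cont array 2 or 8 or STD_Cont array 1, 3, 4 or 7. It was the 1 tendon gene below 0: the other 8 were above 0 and did not pass, and the median over the 9 was 0.29. The mean centred level of the tendon list was −0.68 to 0.36 in HFD_O3 with a median of −0.08, −0.20 to 0.78 in HFD_Cont with a median of 0.11, and −0.56 to 0.33 in STD_Cont with a median of −0.05. For bone, with 3 of 8 markers tested, the score had medians of 0.13 in HFD_O3, 0.19 in HFD_Cont and −0.17 in STD_Cont, and for the 2 tested cartilage genes −0.16, 0.23 and 0.08. Tendon, bone and cartilage express fibrillar genes too, and the part of such tissue in the collagen values was not tested. None of the tested genes on the bone, cartilage, pericyte and smooth muscle, Schwann cell, satellite cell and macrophage lists passed in any comparison.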

How the data were processed

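Total RNA of skeletal muscle from 24 mice was labelled for one-colour Agilent arrays, per the labels' protocols. The deposited scanner files hold spot intensity, and the authors' processed intensity was background-subtracted by Agilent Feature Extraction 10.10.1.1 and not normalized between arrays, per the file headers, with probe positions on mm9. The authors' deposited value table is in log2 units and served as an alternative (made with limma, per the submitters' processing notes). After removal of flagged spots the log2 processed intensity was averaged per probe and scaled by subtracting the 75th percentile of the array's probes, controls excluded. Of 56605 probes, 29245 were kept, and the brightest kept probe represented each of 19937 gene names. Symbols came from RefSeq for 32989 probes and otherwise from the array design. Groups were compared with limma 3.58.1 in R 4.3.3 (two-sided, all 24 arrays, no block, Benjamini-Hochberg over all names, threshold 0.05), and the steps were tested on simulated data. Chains of a trimer were correlated with 100000 permutations in scipy 1.17.1, and files were read with pandas 2.3.3. The members and lists were chosen with earlier results of these data known, so no set test or p-value over the list was made. Named with values were the called genes, the chains of types I, III, V, IV, VI, XV and XVIII that were fixed by name, and up to 3 further genes of each class with the smallest p-values, while Col11a2, Col13a1 and Col22a1 were added after their values were seen. A log2 change is printed for collagen genes with an unadjusted p under 0.05 in that comparison, and for other kept probes of some genes. Alternatives were other background corrections, scalings, filters, probe choices, slide, row and replicate blocks, and left-out arrays. Same-numbered arrays did not pair (correlations of −0.15 to 0.36, over 0.1 in 2 of 8 pairs for each comparison). The labels say that arrays are separate samples, so p-values measure the spread between them.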

Additional observations from a re-analysis of the deposited data

Results flagged for a closer look

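Of 99 sets of 7 or 8 arrays examined for the 33 tested collagen genes, 6 had 1 array far from the rest, and chance gives about 1 in 20. Col1a1 was lowest on STD_Cont array 1, at 1.86, with the next array at 2.64. Col11a2 was highest on HFD_O3 array 2, at −1.25, with the next at −2.53. Col19a1 was highest on HFD_Cont array 7, at 0.55, with the next at −1.84, and Col5a2 was highest on the same array, at −1.11, with the next at −1.87. Col4a1 was lowest on HFD_O3 array 8, at 2.25, with the next at 2.60. Col16a1 was lowest on HFD_Cont array 1, at 0.12, with the next at 0.36.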

How the results depend on the processing

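The small folds of Col6a3 and Col4a2 lay close to the threshold. Col15a1, above background on 18 of 24 arrays, had an SE of 0.35, and Col4a1, above it on all 24, of 0.07. The SE did not follow this count for every gene. Col13a1, above background on all 24 arrays, had an SE of 0.50, and Col11a1, above it on 17, of 0.19. The number of collagen genes past the threshold in HFD_Cont against STD_Cont, 2 in the reported fit, was 1 with normexp background correction and with slide as a random block. It was 0 with median scaling, with no filter on dim probes, within slide 1, 2 or 3, with a block for slide and row, without the arrays rich in adipocyte markers and with the adipocyte score as a covariate, and 6 with only the 2 groups compared (Col1a1, Col3a1, Col4a2, Col5a1, Col6a1 and Col6a3). Leaving out 1 array gave 0 to 5 there, 0 in HFD_O3 against HFD_Cont and 0 to 2 in HFD_O3 against STD_Cont. With the replicate number as a block the count was 1, Col6a3, and the numbers do not pair the arrays. Beside single left-out arrays, Col6a3 was called in 14 and Col4a2 in 11 of 22 settings, at changes of 0.36 to 0.74 and 0.21 to 0.39, all of 1 sign, and Col5a1 in 9. Serpinh1 was called in 18 of 22 settings in both comparisons where it rose. The median over collagen genes in HFD_O3 against HFD_Cont was −0.32 within slide 3. In HFD_O3 against STD_Cont it was 0.28 within slide 2, −0.16 within slide 3 and −0.045 without the adipocyte-rich arrays. Within slide 3 the changes of Col2a1, Col4a1 and Col6a3 in that comparison turned to −0.21, −0.0057 and −0.13. The median over all gene names moved by less than 0.1 under each scaling. The scaling to a percentile over spots was added after seeing the data, and the cause of these shifts was not tested.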
